A study of Mus musculus with 9 samples.

Results

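The 88 genes described here are solute carriers that take sugars, amino acids, phosphate, sulfate and carboxylates across cell membranes, most of them known for work in the proximal tubule of the kidney. They were chosen by symbol alone, as every row of the series' gene table whose name begins with Slc followed by 1, 3, 5, 6, 7, 13, 17, 34, 36 or 38, then the letter a and a number. The rule found 88 rows of 22161. It reads symbols and no values, but it was set with earlier results of these data known. 1 of the rows, Slc7a6os, names a gene on the strand opposite Slc7a6 and is no carrier, so 87 rows were carriers. By family, the table held 7 genes of SLC1, 2 of SLC3, 12 of SLC5, 20 of SLC6, 16 rows of SLC7, 5 genes of SLC13, 9 of SLC17, 3 of SLC34, 4 of SLC36 and 10 of SLC38.

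The study measured polyadenylated RNA of whole kidneys from 9 mice of the C57BL/6 strain, 3 in each of 3 groups. The first group was labelled wild type. The second carried Pkd2fl/fl;Pax8rtTA;TetO-cre and is called Pkd2 here, and the third carried Ift88fl/fl;Pkd2fl/fl;Pax8rtTA;TetO-cre and is called Pkd2;Ift88. From postnatal day 28 all 9 mice, wild type included, were given oral doxycycline (2 mg/ml) over 2 weeks, and they were killed at 10 weeks, on postnatal day 70. Doxycycline turns on the Cre recombinase through the Pax8 promoter, which drives it in kidney tubule cells. Whether the wild-type mice carried Pax8rtTA or TetO-cre is not given in the sources used here. Pkd2 encodes polycystin-2, a cation channel of cilia whose loss causes polycystic kidney disease, and Ift88 encodes a protein needed to build cilia. The design thus asks how the kidney's RNA differs when Pkd2 is deleted, and what differs when Ift88 is deleted as well. Cilia themselves are not measured in these RNA data.

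The values are normalized counts, the submitters' read counts per gene scaled to a common library size, and they summed to between 40454150 and 42874467 per library. Pkd2 itself stood at 13768 to 14505 in the wild-type kidneys, at 4723 to 5549 in the Pkd2 kidneys and at 3777 to 5181 in the Pkd2;Ift88 kidneys, so each mutant library was below each wild-type library. Ift88 stood at 1056 to 1132, at 1086 to 1214 and at 691 to 831 in the same order. Libraries of 1 group differed: wild type 3 correlated with the other wild-type libraries at 0.978 and 0.979 and Pkd2 3 with the other Pkd2 libraries at 0.979 and 0.974, against 0.992 and 0.991 for the remaining pair of each group (Pearson's r over log2 values of all tested genes). Wild type 3 and Pkd2 3 each carry a mouse-name prefix that differs from the rest of their own group and from each other, and the Pkd2;Ift88 mice share a prefix of their own, so prefix and genotype cannot be told apart between those groups. The kidney was sampled whole, and in such bulk RNA fewer cells of a type and less RNA per cell cannot be told apart.

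The proximal tubule reclaims almost all filtered glucose, amino acids and phosphate, using a sodium gradient across the cell membrane. Carriers in the apical brush border bring a solute into the cell together with sodium or in exchange for another solute, and other carriers let it out on the blood side. Some of the families also hold carriers of osmolytes, of lysosomes and of nerve endings. Of these 88 genes, 71 had a mean of at least 10 normalized counts over the 9 libraries and were tested, 70 carriers and Slc7a6os. The other 17 lay below that mean and were not tested, among them the iodide carrier Slc5a5, at 0 to 8.04, the vesicular glutamate carriers Slc17a6 and Slc17a7, at 0 to 4.51, and the dopamine carrier Slc6a3, at 0 to 6.11. Others of the 17 were Slc1a6, Slc1a7, Slc5a4b, Slc6a2, Slc6a5, Slc6a11, Slc6a16, Slc7a10, Slc7a14, Slc7a15, Slc36a3 and Slc38a5, of which Slc7a10 reached the highest single value, 35.1 in Pkd2 3.

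Together the 88 genes held 1.52% to 1.71% of the normalized counts of a library. The sodium-phosphate cotransporter Slc34a1, the main phosphate carrier of the brush border, held 33.7% to 38.3% of their sum. Per kilobase of exon, Slc34a1 was highest in the wild-type kidneys, at 49490 ± 3052 normalized counts per kb (SD, n = 3). Next came Slc7a13, a light chain that carries aspartate, glutamate and cystine, at 22280 ± 1814 per kb, and Slc17a1, an organic anion carrier, at 12610 ± 1432 per kb. Slc3a1, the heavy chain whose mutation causes cystinuria, stood at 10980 ± 283 per kb, and its 3 wild-type libraries lay below those of Slc17a1. The range ran down to genes listed at 0 in most libraries, such as the vesicular glutamate carrier Slc17a6.

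**Figure D1:**
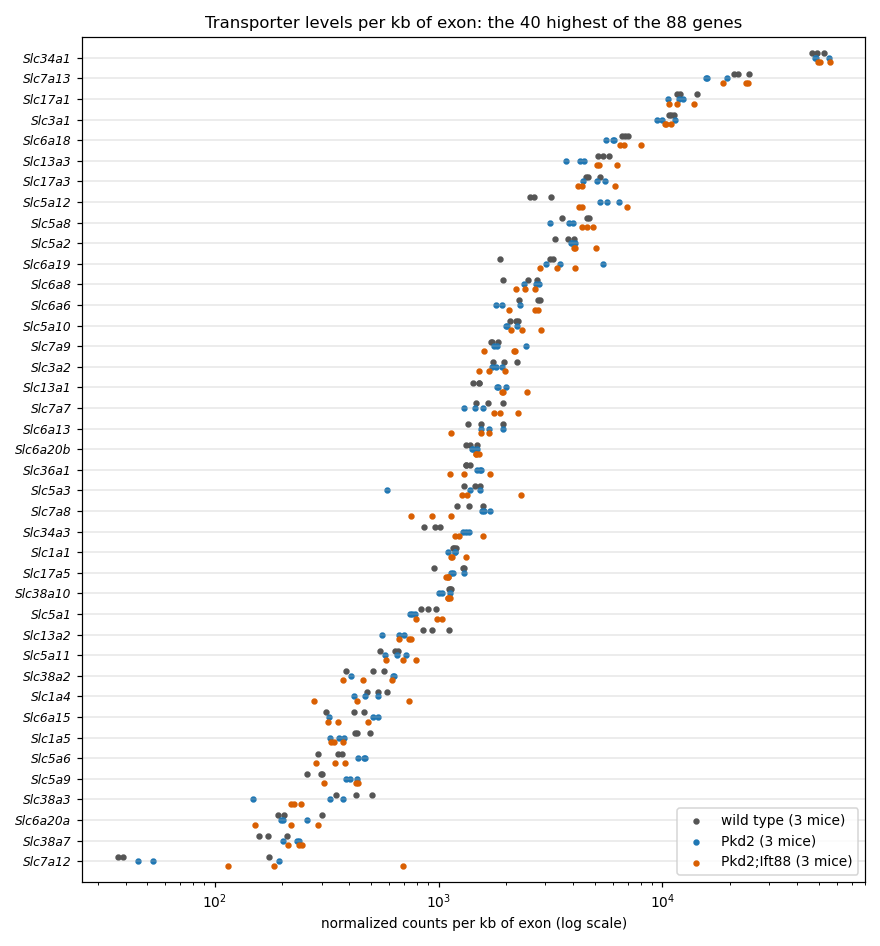
Normalized counts per kb of exon on a log scale for the 40 highest of the 88 genes, with 1 point per mouse in grey for wild type, blue for Pkd2 and orange for Pkd2;Ift88. Slc34a1 stood highest in all 9 mice, and the Pkd2 and Pkd2;Ift88 points of Slc5a12 all lay to the right of its wild-type points.

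The promoters of 5 members are shown as a description of letters, and no test between groups used them. Slc34a1 and Slc3a1 each hold more than 1 motif match, and Slc38a4 and Slc13a2 passed the test between groups. Slc7a8 had the lowest p of the members between the Pkd2 and Pkd2;Ift88 kidneys. The promoter of Slc5a12, which also passed the test, is not among the 5. Each runs from 250 bases before the start to 50 bases after it, from RefSeq, build GRCm38.p6: chr13:55399398-55399697 on the plus strand for Slc34a1, chr17:85028097-85028396 on the plus strand for Slc3a1, chr15:97055907-97056206 on the minus strand for Slc38a4 (the first of its starts in the table), chr11:78422185-78422484 on the minus strand for Slc13a2 and chr14:54781837-54782136 on the minus strand for Slc7a8. Capitals mark matches, on either strand, to GTTAAT, the core of the site bound by the hepatocyte nuclear factor 1 family, or to CAAAGTCCA, a site of the hepatocyte nuclear factor 4 family.
Slc34a1: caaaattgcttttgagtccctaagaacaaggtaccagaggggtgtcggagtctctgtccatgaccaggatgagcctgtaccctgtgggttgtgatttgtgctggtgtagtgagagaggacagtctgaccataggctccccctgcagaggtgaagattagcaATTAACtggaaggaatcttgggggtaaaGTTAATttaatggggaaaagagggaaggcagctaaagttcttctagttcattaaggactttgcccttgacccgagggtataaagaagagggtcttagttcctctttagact
Slc3a1: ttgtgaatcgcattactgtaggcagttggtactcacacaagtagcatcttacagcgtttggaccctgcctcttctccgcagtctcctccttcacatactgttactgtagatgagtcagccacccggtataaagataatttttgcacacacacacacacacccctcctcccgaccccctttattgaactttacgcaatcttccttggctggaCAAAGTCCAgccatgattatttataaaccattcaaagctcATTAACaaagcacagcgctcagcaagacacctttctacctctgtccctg
Slc38a4: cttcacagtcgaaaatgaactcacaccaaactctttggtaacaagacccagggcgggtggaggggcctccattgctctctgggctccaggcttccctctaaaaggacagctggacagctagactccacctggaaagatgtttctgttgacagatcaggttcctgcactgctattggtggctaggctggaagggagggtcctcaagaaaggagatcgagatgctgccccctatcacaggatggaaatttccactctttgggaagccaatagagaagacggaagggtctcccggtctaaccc
Slc13a2: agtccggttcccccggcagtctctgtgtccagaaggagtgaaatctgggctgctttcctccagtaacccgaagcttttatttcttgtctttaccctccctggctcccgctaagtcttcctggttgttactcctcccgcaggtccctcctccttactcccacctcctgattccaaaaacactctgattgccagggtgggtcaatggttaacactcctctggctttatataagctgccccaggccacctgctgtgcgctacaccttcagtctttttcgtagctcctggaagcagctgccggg
Slc7a8: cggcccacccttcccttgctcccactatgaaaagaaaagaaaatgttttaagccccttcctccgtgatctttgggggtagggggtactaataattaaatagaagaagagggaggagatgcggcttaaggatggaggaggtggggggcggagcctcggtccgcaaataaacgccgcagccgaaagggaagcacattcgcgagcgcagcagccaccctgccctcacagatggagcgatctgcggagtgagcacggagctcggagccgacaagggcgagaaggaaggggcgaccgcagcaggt

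The promoter table held 50 of the 71 tested members, and the first start listed for each gene was counted. At that start GTTAAT was present in 6 of the 50, which is 12.0%, against 4.75% of the 11221 tested genes with a promoter in the table. They were Slc34a1, with 2 matches, Slc3a1, Slc5a10, Slc6a20a, Slc36a1 and Slc5a4a. Slc6a13 and Slc7a7 held it at a later start of the table. CAAAGTCCA was found in Slc3a1 alone, 1 of 50 or 2.00%, against 0.428% of those tested genes. TGATGNAAT, an element of the C/EBP and ATF factors, was found in Slc17a1 alone, against 0.446%. Over all 27025 genes of the promoter table, tested or not, the shares were 7.2% for GTTAAT, 0.477% for CAAAGTCCA and 0.969% for TGATGNAAT. None of these motifs overlapped another in the windows shown, and Slc38a4, Slc13a2 and Slc7a8 held no match to these letters in this window. A match is a description of letters and was not tested for binding.

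Pkd2 kidneys were first compared with wild type. In this comparison 3 of the 71 tested members passed the test: Slc5a12, a sodium-coupled carrier of lactate and other monocarboxylates, and Slc38a4, a neutral amino acid carrier, rose, and Slc13a2, the brush-border carrier of citrate and succinate, fell. Passing means a Benjamini-Hochberg adjusted p below 0.05 over all 15740 genes tested with limma, and 2.40% of all those genes passed against 4.23% of the members. The glucose carriers Slc5a1 and Slc5a2, the main phosphate carrier Slc34a1 and the cystine exchanger of Slc3a1 and Slc7a9 did not pass. The count moved with the fit: 20 members passed with array quality weights, 1 without wild type 2, without wild type 3, without Pkd2;Ift88 1 or without the intensity trend, and 0 without wild type 1, Pkd2 1 or Pkd2 2. The count of all genes moved too, and 3222 of 15740 passed with array quality weights. In the fits with 1 member it was 70, 293, 287 and 262, and in those with 0 members 106, 91 and 80, in the same order. The median log2 fold change was 0.04 for the members and 0.00 for all genes, and the median size regardless of sign was 0.24 against 0.16.

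**Figure D2:**
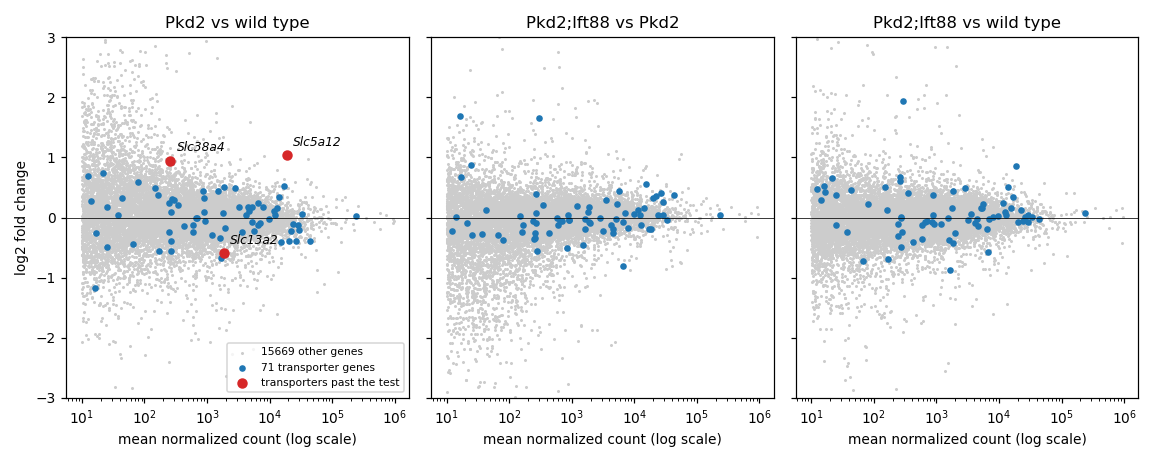
Log2 fold change against the mean normalized count (log scale) for the 15740 tested genes in each comparison, with the 71 tested members in blue, those past the test in red and all other genes in grey. Slc5a12 and Slc38a4 lie above and Slc13a2 below 0 in Pkd2 against wild type, no member is red in the other panels, and 36, 32 and 14 genes beyond a log2 fold change of 3 are not drawn.

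The carboxylate and sulfate carriers held 2 of the 3 calls. Slc5a12 stood at 10426, 10790 and 12918 normalized counts in the wild-type kidneys, at 22918, 26026 and 21365 in the Pkd2 kidneys and at 17160, 28153 and 17796 in the Pkd2;Ift88 kidneys. All 6 mutant kidneys were above all 3 wild-type kidneys. The mean went from 11378 ± 1346 to 23436 ± 2373 (SD, n = 3), 2.06-fold, with a log2 fold change of 1.04 ± 0.18 (SE; 95% interval 0.64 to 1.45; adjusted p = 0.0252, limma). Slc5a12 kept a positive difference under all 25 alternatives and passed under 18 of them. It did not pass without wild type 1, wild type 2, Pkd2 1 or Pkd2 2. Of the alternatives, 1 tested only for a log2 fold larger than 1 in size and is called the minimum-fold fit here. Over the rest, the adjusted p of Slc5a12 ran from 0.00145 (limma, array quality weights) to 0.275 (edgeR).

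Slc5a8 carries the same monocarboxylates with higher affinity, and in wild type it was the more abundant of the pair per kilobase, at 4275 ± 617 against 2802 ± 331 normalized counts per kb for Slc5a12. In the Pkd2 kidneys the order was turned, with 3636 ± 445 per kb for Slc5a8 and 5771 ± 584 per kb for Slc5a12. In Pkd2;Ift88 the means were 4641 ± 269 and 5180 ± 1520 per kb, with Pkd2;Ift88 2 highest for Slc5a12 (SD, n = 3). The order of the 2 genes has no test. Slc5a8 itself stood at 24934, 24432 and 19002 in wild type, at 21132, 16685 and 20341 in Pkd2 and at 24652, 23357 and 26218 in Pkd2;Ift88. Wild type and Pkd2 overlapped, and the log2 difference was -0.23 ± 0.13 (SE). The count of Slc5a12 divided by that of Slc5a8 was 0.42, 0.44 and 0.68 in wild type, 1.08, 1.56 and 1.05 in Pkd2 and 0.70, 1.21 and 0.68 in Pkd2;Ift88. This ratio has no test and is not scaled by exon length, so a value of 1 does not mark equal abundance.

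Slc13a2 stood at 2057, 2676 and 2253 in wild type, at 1344, 1684 and 1601 in Pkd2 and at 1776, 1818 and 1602 in Pkd2;Ift88. Every mutant kidney was below every wild-type kidney. The mean went from 2329 ± 317 to 1543 ± 177 in Pkd2 (SD, n = 3), and Slc13a2 fell by 0.59 ± 0.12 on the log2 scale (95% interval -0.86 to -0.33; adjusted p = 0.0377, limma). The call was the least stable of the 3: the difference stayed negative under all 25 alternatives and passed under 11, and of the 9 fits with 1 library left out it passed only without Pkd2;Ift88 3. Outside the minimum-fold fit, its adjusted p ran from 0.00927 (DESeq2) to 0.197 (edgeR) over the alternatives.

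Other members of the SLC13 family did not pass. Slc13a1, the brush-border sulfate carrier, stood at 11739, 10964 and 11700 in wild type and at 14228, 15404 and 14064 in Pkd2, with no overlap, and its difference of 0.34 ± 0.10 (log2, SE) did not pass (adjusted p = 0.122, limma). Slc13a3, which takes up dicarboxylates from the blood side, stood at 28334, 26855 and 30166 in wild type and at 23382, 22283 and 19286 in Pkd2. These groups did not overlap either, and its log2 difference was -0.40 ± 0.10 (SE; adjusted p = 0.0866, limma). The count of Slc13a1 divided by that of Slc13a2 went from 5.0 ± 0.82 in wild type to 9.51 ± 0.95 in Pkd2 and 9.43 ± 1.14 in Pkd2;Ift88 (SD, n = 3), with no overlap between wild type and either mutant group. The ratio was chosen after its values were seen and has no test.

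The other carriers of this role include Slc5a6, the vitamin carrier for biotin and pantothenate, at 1425, 1477 and 1156 in wild type, 1862, 1869 and 1737 in Pkd2 and 1372, 1523 and 1135 in Pkd2;Ift88. The 3 Pkd2 kidneys were the highest of the 9, and its log2 difference from wild type was 0.44 ± 0.13 (SE; adjusted p = 0.110, limma). The sulfate carrier Slc13a4 ranged from 184 to 365 and the citrate carrier Slc13a5 from 36.2 to 119 over the 9 libraries. Of the 8 tested carriers of this role, 1 rose, 1 fell and 6 did not pass. Slc5a6 and Slc13a4, like Slc5a9, Slc1a5, Slc6a9, Slc6a7, Slc38a10, Slc36a1 and Slc17a5 below, were singled out after their values were seen.

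Among the SLC38 carriers of glutamine and other neutral amino acids, 1 of 9 tested genes rose and none fell. Slc38a4 stood at 152, 218 and 157 normalized counts in wild type, at 381, 329 and 297 in Pkd2 and at 277, 305 and 220 in Pkd2;Ift88. The highest wild-type kidney lay just under the lowest Pkd2;Ift88 kidney, and the Pkd2 kidneys lay clear of wild type. The mean went from 175 ± 36.6 to 336 ± 42.5 (SD, n = 3), 1.92-fold, with a log2 fold change of 0.95 ± 0.18 (SE; 95% interval 0.53 to 1.36; adjusted p = 0.0342, limma). It stayed positive under all 25 alternatives and passed under 13, with an adjusted p, outside the minimum-fold fit, from 0.00435 (limma, array quality weights) to 0.355 (edgeR). It did not pass without wild type 1, wild type 3, Pkd2 1, Pkd2 2 or Pkd2;Ift88 1.

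Slc38a3, which moves glutamine across the basolateral membrane of the proximal tubule for ammonia production, was lower in most mutant kidneys. It stood at 2649, 2250 and 1842 in wild type, at 1722, 1967 and 785 in Pkd2 and at 1283, 1195 and 1157 in Pkd2;Ift88. Pkd2 2 lay inside the wild-type range, and all Pkd2;Ift88 kidneys lay below it. The log2 difference of Pkd2 from wild type was -0.68 ± 0.30 (SE; adjusted p = 0.270, limma). The remaining carriers of the family included Slc38a10, the steadiest of the 71 tested members, whose highest library was 1.13-fold its lowest.

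The brush-border phosphate carriers did not pass. Slc34a1 stood at 246650, 218360 and 229224 in wild type, at 225690, 224552 and 259556 in Pkd2 and at 236064, 260666 and 230637 in Pkd2;Ift88. The 3 groups overlapped, and the log2 difference of Pkd2 from wild type was 0.03 ± 0.11 (SE; 95% interval -0.22 to 0.28). Slc34a3, the other brush-border phosphate carrier of that family, stood at 2024, 2277 and 2381 in wild type, at 3028, 3128 and 3218 in Pkd2 and at 2803, 3723 and 2917 in Pkd2;Ift88. All 6 mutant kidneys lay above the wild-type kidneys, with a log2 difference of 0.49 ± 0.11 in Pkd2 (SE), just short of the threshold (adjusted p = 0.0558, limma). Under the 25 alternatives its adjusted p was as low as 0.00547 and passed in 4. Leaving out 1 library gave an adjusted p of 0.0232 to 0.171 (limma).

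The organic anion carriers Slc17a1 and Slc17a3, which handle urate among other anions, ranged from 24984 to 33819 and from 28464 to 41460 over the 9 libraries, and their groups overlapped. Slc34a2, the phosphate carrier of gut and lung, was low, at 213 to 684. Slc17a4 stood at 156 to 168 in wild type and at 225, 238 and 543 in Pkd2, with Pkd2 3 far above the rest, and its log2 difference of 0.92 ± 0.41 (SE) did not pass (adjusted p = 0.279, limma). None of the 7 tested carriers of this role passed.

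Sugar carriers showed small differences. Slc5a2, the carrier of the early proximal tubule that reclaims most glucose, stood at 9571, 10955 and 11631 in wild type, at 11302, 11783 and 11462 in Pkd2 and at 11639, 14692 and 11754 in Pkd2;Ift88. Its log2 difference of Pkd2 from wild type was 0.11 ± 0.10 (SE; 95% interval -0.13 to 0.34). Slc5a1, the high-affinity carrier of the late segment, stood at 3667, 3982 and 3414 in wild type and at 3121, 3048 and 3205 in Pkd2. These groups did not overlap, but the log2 difference of -0.24 ± 0.10 (SE) did not pass (adjusted p = 0.272, limma).

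Slc5a9, a carrier of mannose and related sugars, stood at 1562, 1539 and 1333 in wild type, at 2079, 1997 and 2244 in Pkd2 and at 2257, 2212 and 1600 in Pkd2;Ift88. Each mutant kidney was above each wild-type kidney, and the log2 difference of Pkd2 was 0.51 ± 0.13 (SE; adjusted p = 0.0845, limma). Slc5a10, a carrier of mannose and fructose, ranged from 4752 to 6800 over the 9 libraries with overlapping groups. Slc5a3, the inositol carrier that lets medullary cells gather an osmolyte, stood at 15118, 16784 and 6414 in Pkd2, so that Pkd2 3 alone was low, against 14175 to 16690 in wild type. None of the 7 tested sugar and inositol carriers passed.

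Of the apical SLC6 carriers of neutral amino acids, none of 5 passed. Slc6a18, a glycine carrier of the late proximal tubule, stood at 30195, 29238 and 31090 in wild type and at 24796, 26465 and 26936 in Pkd2, with a log2 difference of -0.21 ± 0.09 (SE; adjusted p = 0.258, limma). Slc6a19, the main neutral amino acid carrier of the brush border, ran from 9369 in wild type 3 to 27260 in Pkd2 3. The other 7 libraries lay between 14254 and 20280, so both extremes came from mice whose name prefix differs from the rest of their group. Slc6a20b, an imino acid carrier, ranged only from 11372 to 12978. Slc6a20a and Slc6a20b, like Slc5a4a and Slc5a4b, are close copies, and how reads that fit both were counted is not given in the sources used here.

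The heteromeric exchangers pair a heavy chain, Slc3a1 or Slc3a2, with an SLC7 light chain, and none of their 10 tested genes passed in Pkd2 against wild type. Slc7a13 stood at 46415, 44606 and 52054 in wild type, at 33972, 33565 and 41414 in Pkd2 and at 50525, 39772 and 51459 in Pkd2;Ift88. Pkd2 lay below wild type without overlap, and its log2 difference was -0.40 ± 0.13 (SE; adjusted p = 0.143, limma). Its heavy chain Slc3a1 ranged from 21540 to 25746 over the 9 libraries with overlapping groups. Slc7a9, the other partner of Slc3a1, ranged from 4285 to 6557.

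Of the SLC1 carriers, Slc1a1, the brush-border carrier of glutamate and aspartate, ranged from 9103 to 10982 over the 9 libraries. Slc1a5, a glutamine and neutral amino acid carrier, stood at 1809, 2056 and 1762 in wild type, at 1505, 1361 and 1581 in Pkd2 and at 1425, 1555 and 1380 in Pkd2;Ift88. All mutant kidneys were below the wild-type kidneys, and the log2 difference of Pkd2 was -0.34 ± 0.09 (SE; adjusted p = 0.0903, limma). Osmolyte and creatine carriers did not pass. Slc6a6, the taurine carrier, stood at 23890, 23616 and 19414 in wild type and at 15221, 16243 and 19508 in Pkd2, where Pkd2 3 reached into the wild-type range. Slc6a12, the betaine carrier of the medulla, ranged from 93.6 to 209, and Slc6a13, a carrier of GABA and betaine, from 3291 to 5634.

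The remaining roles held no call in Pkd2 against wild type: 0 of 4 tested cationic amino acid carriers, 0 of 3 proton-coupled carriers, 0 of 3 lysosomal and vesicular SLC17 carriers, 0 of 5 SLC1 carriers and 0 of 9 osmolyte, creatine and neurotransmitter carriers. Slc7a5, a light chain of Slc3a2 that feeds large neutral amino acids to growing cells, stood at 277, 261 and 131 in wild type, at 209, 136 and 103 in Pkd2 and at 143, 141 and 113 in Pkd2;Ift88. Wild type 3 lay inside the range of the mutant kidneys, and the other wild-type kidneys lay above it. Slc6a4, the serotonin carrier, stood at 360, 352 and 277 in wild type and at 176, 179 and 340 in Pkd2, so Pkd2 3 was again apart from its group, and the log2 difference of -0.57 ± 0.29 (SE) did not pass (adjusted p = 0.338, limma). Slc7a2, a cationic carrier, stood at 294, 292 and 403 in Pkd2 and at 393, 117 and 237 in Pkd2;Ift88, with overlap. Slc36a1, a lysosomal proton-coupled carrier, ranged from 6338 to 9583, and Slc17a5, which exports sialic acid from lysosomes, from 3457 to 4702.

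Before adjustment, 18 of the 71 members had p below 0.05 in Pkd2 against wild type, 8 higher and 10 lower, which is 25.4% against 18.0% of all tested genes. The 3 Pkd2 kidneys lay above all 3 wild-type kidneys for 10 members (14.1%) and below them for 9 (12.7%). The shares over all tested genes were 12.4% and 12.8%, so these counts were near the background. By role, the 8 tested carboxylate and sulfate carriers held 5 with unadjusted p below 0.05, the 9 osmolyte and neurotransmitter carriers 4 and the 9 SLC38 carriers 3.

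**Figure D3:**
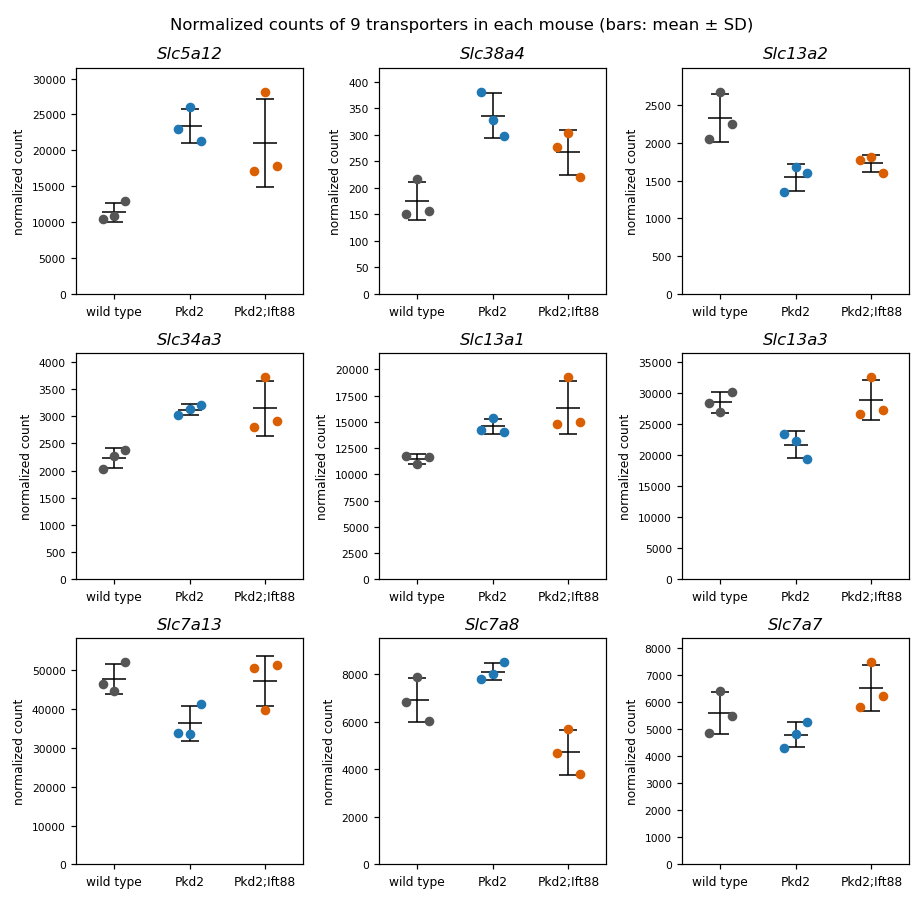
Normalized counts of 9 members in each mouse, with points for single mice and bars for the mean ± SD of 3 mice per group. Slc5a12, Slc38a4, Slc34a3 and Slc13a1 stand higher and Slc13a2 lower in both mutant groups than in wild type. Slc13a3 is low in Pkd2 alone, and Slc7a8 is low in Pkd2;Ift88. Slc7a13 is low in Pkd2, and Pkd2;Ift88 2, at 39772, also lies below wild type.

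The comparison of Pkd2;Ift88 with Pkd2 asks what differed when Ift88 was deleted as well. None of the 71 tested members passed, against 0.394% of all tested genes. Before adjustment, 13 members (18.3%) had p below 0.05, 9 higher and 4 lower, against 10.7% of all tested genes. The Pkd2;Ift88 kidneys lay wholly above the Pkd2 kidneys for 8 members and wholly below for 5, which is 11.3% and 7.04%, against 7.40% and 7.78% of all. On the 7 libraries whose whole reads were recovered here, edgeR called 0 members and DESeq2 called 1, Slc7a8. Of all 15740 genes, edgeR called 10 and DESeq2 149 there. These 7 libraries leave out wild type 1 and Pkd2 1. Their wild-type libraries are thus only wild type 2 and 3 and their Pkd2 libraries only Pkd2 2 and 3, each with the mouse of differing name prefix.

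Slc7a8, a basolateral exchanger of neutral amino acids that pairs with Slc3a2, stood at 6847, 7870 and 6049 in wild type, at 7796, 8025 and 8497 in Pkd2 and at 4670, 5676 and 3782 in Pkd2;Ift88. The Pkd2;Ift88 kidneys were the 3 lowest of the 9. Against Pkd2 the mean went from 8106 ± 358 to 4710 ± 948 (SD, n = 3), and the log2 difference was -0.80 ± 0.14 (SE; 95% interval -1.13 to -0.48; adjusted p = 0.0597, limma). It stayed negative under all 25 alternatives, with an adjusted p as low as 0.00584, and passed under 2, array quality weights and DESeq2. Leaving out 1 library gave an adjusted p of 0.0570 to 0.211 (limma).

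Slc7a7, the other basolateral light chain of Slc3a2, whose loss causes lysinuric protein intolerance, went the opposite way. It stood at 4866, 6416 and 5486 in wild type, at 4315, 4820 and 5248 in Pkd2 and at 5837, 7469 and 6216 in Pkd2;Ift88. Pkd2;Ift88 lay above Pkd2 without overlap, with a log2 difference of 0.44 ± 0.13 (SE; adjusted p = 0.223, limma). The count of Slc7a7 divided by that of Slc7a8 was 0.71, 0.82 and 0.91 in wild type, 0.55, 0.60 and 0.62 in Pkd2 and 1.25, 1.32 and 1.64 in Pkd2;Ift88. The 3 Pkd2;Ift88 kidneys had the highest ratios, and the ratio has no test. Its counts are not scaled by exon length, so a value of 1 does not mark equal abundance. Per kilobase, Slc7a7 stood at 1686 ± 235 and Slc7a8 at 1383 ± 182 normalized counts per kb in wild type. They stood at 1446 ± 141 and 1620 ± 71.5 per kb in Pkd2, and at 1963 ± 258 and 941 ± 189 per kb in Pkd2;Ift88 (SD, n = 3). Their shared heavy chain Slc3a2 stood at 6167, 7940 and 6895, at 6353, 6757 and 6137 and at 5351, 7021 and 5951 in the 3 groups, which overlapped.

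Slc7a7 and Slc7a8 are the members that lie on mouse chromosome 14, the chromosome of Ift88, with 96 and 80 protein-coding genes of RefSeq (GRCm38.p6) between each and Ift88. DNA near a floxed allele can come with it from the strain in which the allele was made, and that DNA and the loss of Ift88 cannot be told apart here, since the same mice carry both. On chromosome 5, which holds Pkd2, lie Slc34a2, Slc5a1, Slc5a6 and Slc7a1, with 288 to 603 protein-coding genes between each and Pkd2. This look at positions was chosen after the values were seen.

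Some other members with low values in Pkd2, such as Slc13a3, stood nearer wild type in Pkd2;Ift88. The means of others, such as Slc38a3 and Slc1a5, were lower still there. Slc13a3 stood at 26623, 32505 and 27260 in Pkd2;Ift88, above all Pkd2 kidneys, with a log2 difference of 0.41 ± 0.10 (SE; adjusted p = 0.156, limma). Slc6a9, a glycine carrier, went the other way, from 1216, 1091 and 855 in Pkd2 to 692, 701 and 800 in Pkd2;Ift88, against 698 to 854 in wild type (adjusted p = 0.185, limma). Slc6a7, a proline carrier known from brain, was near the floor of the test at 4.67 to 12.7 in Pkd2 and 18.2 to 33.6 in Pkd2;Ift88. Both comparisons with Pkd2 share the Pkd2 libraries, so a value that is high or low there moves both.

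Without wild type 3 and Pkd2 3, the mice whose name prefix differs from the rest of their group, 3 members passed in Pkd2;Ift88 against Pkd2, Slc6a7 higher and Slc6a9 and Slc38a3 lower, and 1 passed in Pkd2 against wild type, Slc5a12. In Pkd2;Ift88 against wild type, 1 then passed, Slc38a3, which fell. Of all 15740 tested genes, 308, 517 and 111 passed in this fit, in the same order of comparisons.

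Against wild type, none of the 71 members passed in Pkd2;Ift88, where 0.229% of all tested genes did. Before adjustment, 15 members (21.1%) had p below 0.05, 8 higher and 7 lower, against 11.7% of all tested genes. The groups did not overlap for 8 members on the higher side and 8 on the lower, each 11.3%, against 9.10% and 9.24% of all. On the 7 libraries with recovered reads, edgeR called 0 members and DESeq2 called 3, Slc5a12 and Slc13a1 higher and Slc13a2 lower. Of all 15740 genes, edgeR called 10 and DESeq2 111 there.

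The members nearest the threshold included ones already described. Slc13a1, with 14770, 19274 and 15023 in Pkd2;Ift88, was above all wild-type kidneys by 0.50 ± 0.10 on the log2 scale (SE; adjusted p = 0.124, limma). For Slc5a12 the log2 difference was 0.85 ± 0.18 (SE; adjusted p = 0.128, limma) and for Slc34a3 it was 0.49 ± 0.11 (SE; adjusted p = 0.142, limma). For Slc1a5 it was -0.37 ± 0.09 (SE; adjusted p = 0.167, limma) and for Slc7a8 -0.57 ± 0.14 (SE; adjusted p = 0.184, limma). For Slc38a3, the lowest value of the tested members, it was -0.88 ± 0.30 (SE; adjusted p = 0.303, limma). Slc7a12, a light chain with no known heavy chain, had the widest spread of the tested members, from 64.3 to 1213, with Pkd2;Ift88 1 highest.

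**Figure D4:**
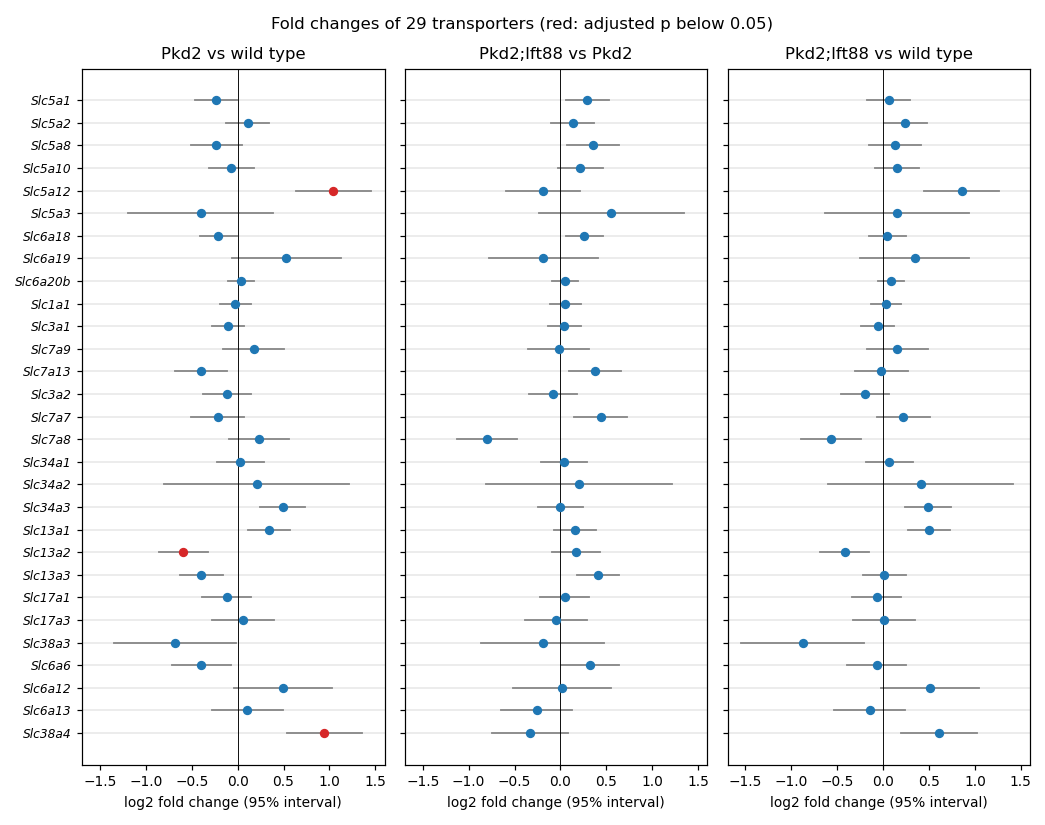
Log2 fold changes with 95% intervals from limma in the 3 comparisons for 28 transport genes of the kidney and Slc38a4, with those past the test in red. Slc5a12 and Slc38a4 lie to the right and Slc13a2 to the left of 0 in Pkd2 against wild type, and the interval of Slc7a8 lies below 0 in both comparisons of Pkd2;Ift88.

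The genes that work with the carriers were read from 5 lists, and none of their 53 tested genes passed in any comparison. The lists were surface chaperones and scaffolds (7 tested), basolateral exit carriers and genes that work with them (12), other phosphate carriers and phosphate hormone genes (11), transcription factors of the proximal tubule (10) and amino acid stress genes (13). With limma, unadjusted p was below 0.05 for 16 of these genes (30.2%) in Pkd2 against wild type, 4 (7.55%) in Pkd2;Ift88 against Pkd2 and 13 (24.5%) in Pkd2;Ift88 against wild type. The shares of all tested genes were 18.0%, 10.7% and 11.7%. Tmem27, the chaperone that brings Slc6a19 to the surface, ranged from 47094 to 54840 over the 9 libraries. Kl, the coreceptor for the phosphate hormone FGF23, stood at 48824 to 50434 in wild type and at 41755 to 46156 in Pkd2, with a log2 difference of -0.18 ± 0.08 (SE; adjusted p = 0.261, limma). Hnf4a stood at 39381 to 42416 in wild type and 43547 to 48185 in Pkd2, and Nfat5, the factor of the osmotic response, at 7459 to 8096 and 8051 to 8631.

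Other markers of the proximal tubule, none of them members, were measured beside the carriers. Of 22 such genes, 3 fell in Pkd2 against wild type, Miox, Napsa and Cyp7b1, and none rose, where 2.40% of all tested genes passed. Their summed level was 2445580 to 2599900 normalized counts in wild type, 2244490 to 2465930 in Pkd2 and 2052430 to 2467220 in Pkd2;Ift88, and none of the defining genes was at 0. Thick ascending limb markers fell further, 4 of 7 in Pkd2, with a summed level of 357879 to 375391 in wild type, 169747 to 207210 in Pkd2 and 224242 to 292735 in Pkd2;Ift88. The summed macrophage markers were 10342 to 11671 in wild type and 18380, 19156 and 10397 in Pkd2, and hemoglobin and other erythroid genes were highest in Pkd2 3, at 6174, against at most 1012 elsewhere. In Pkd2 against wild type, 2 of 7 distal convoluted and connecting tubule markers and 1 of 9 collecting duct markers also fell, and no tested marker of podocytes (6), endothelium (7), fibroblasts (8), macrophages (7), lymphocytes (5), erythroid cells (5), adipose and adrenal tissue (5) or injured tubules (9) passed. In Pkd2;Ift88 against Pkd2, 1 fibroblast marker, Col1a1, fell, and no other marker passed in either comparison of Pkd2;Ift88. The part of these shifts in the carriers' values was not tested. Without Pkd2 3, Slc5a12 and Slc38a4 still passed in Pkd2 against wild type and Slc13a2 did not, with an adjusted p of 0.0543 (limma).

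**Figure D5:**
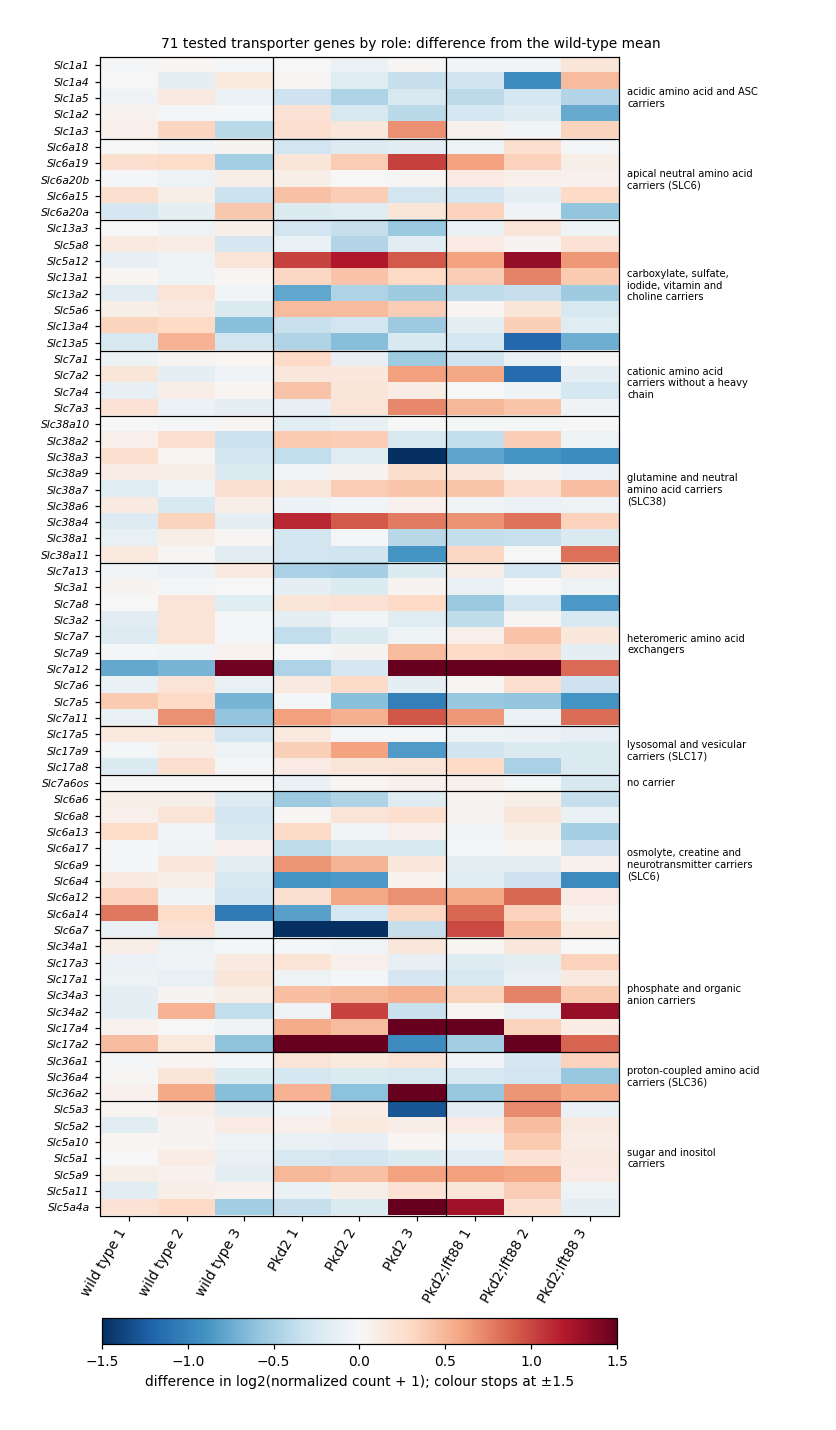
Difference of each library from the wild-type mean in log2(normalized count + 1) for the 71 tested genes, grouped by role, with red for higher, blue for lower and full colour at 1.5. Slc5a12, Slc38a4, Slc34a3 and Slc5a9 are red in all 6 mutant columns, Slc13a2 is blue in all 6, and most rows stay pale.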

How the data were processed

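The table gave 1 value per gene and mouse as normalized signal, that is gene counts which the authors divided by a size factor, per the deposited values. The submitters' processing notes name STAR 2.5.0, HTSeq 0.6.1 and DESeq2. Build, annotation and strand setting were not given in the sources used here, so Slc7a6 and Slc7a6os may share reads. Titles gave each mouse its group and replicate number, and the design text calls the replicates biological.

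Values were tested as log2(normalized count + 1) with limma 3.58.1 (R 4.3.3), an intensity trend and 1 mean per group over all 9 libraries, for 15740 genes averaging 10 or more, two-sided, with Benjamini-Hochberg adjustment. Fold changes understate low genes. In 7 libraries the values were whole multiples of 1 read (100% within 0.05), giving 37056843 to 47314829 reads. On these, edgeR 4.0.16 and DESeq2 1.42.0 were run as alternatives. In wild type 1 and Pkd2 1, 1 read was worth close to 1 normalized count. For that reason they were left out of these tests, though their values were also whole multiples of 1 read. The test was checked on simulated data, drawn as independent normal values with the spreads that limma estimated. These draws hold no outlying mice, so that check does not bear on how calls move between fits.

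The members and lists were chosen with earlier results of these data known. Named were all members past the test, 28 fixed carriers, per comparison the 3 largest rises and falls among uncalled members averaging 50 or more, and the most abundant uncalled gene of each partner list; any other gene given with values was chosen after they were seen. Some genes that the rules cover are not reported here. Exon lengths were from GENCODE M21 and matched 88 of 88 members. Of the row names, 25 were dates and were not read as genes of any list.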

Additional observations from a re-analysis of the deposited data

How the results depend on the processing

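Members called, in the order Pkd2 against wild type (3), Pkd2;Ift88 against Pkd2 (0) and Pkd2;Ift88 against wild type (0), were 20, 5 and 5 with array quality weights, 1, 3 and 1 without wild type 3 and Pkd2 3 together (name prefixes unlike the rest of their group), and 2, 1 and 3 with DESeq2. In the first comparison they were 1 without the intensity trend and 0 with a minimum log2 fold of 1, with edgeR or with limma on the 7 libraries. Leaving out 1 library gave 0 to 4, 0 to 2 and 0 to 1. The cause was not tested. The 7 libraries hold fewer samples and leave out wild type 1 and Pkd2 1, and number, choice of mice and method were not separated.

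All genes called were 377, 62 and 36. They were 3222, 614 and 295 with array quality weights, 517, 308 and 111 without those mice, 7, 4 and 8 with the minimum fold, 11, 10 and 10 with edgeR, 13, 11 and 11 with limma on the 7 libraries and 296, 149 and 111 with DESeq2. In Pkd2;Ift88 against Pkd2 they were 31 with quantile normalization and 26 with only the groups compared. Leaving out 1 library gave 70 to 436, 8 to 154 and 18 to 58.

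With the replicate block, members called stayed at 3, 0 and 0, and all genes called went to 217, 15 and 20. Replicate numbers did not pair the mice: the deviations of same-numbered libraries correlated at -0.142 to 0.215. Of the named members' values, none changed sign while called, 31 came to pass, 33 no longer passed, 115 changed sign while not called and 2596 kept sign and side. Under the rescalings, the median log2 fold change of all genes stayed between -0.012 and 0.0133.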

Other observations

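Some carriers had 1 library far from the rest of its group. Slc7a12 stood at 64.3, 67.6 and 305 in wild type, at 79.5, 92.5 and 336 in Pkd2 and at 1213, 322 and 199 in Pkd2;Ift88. Slc36a2, a proton-coupled carrier of glycine and proline, stood at 81.4, 36.4 and 207 in Pkd2. Slc17a2, chosen after its values were seen, stood at 40.7, 36.4 and 5.85 in Pkd2. Wild type 3 held the lowest of the 9 values for 16 of the tested members, Pkd2 3 the highest for 13 and Pkd2;Ift88 2 the highest for 14.

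Cyp27b1, which makes active vitamin D in the proximal tubule and was singled out after its values were seen, stood at 732, 1145 and 678 in wild type, at 135, 362 and 452 in Pkd2 and at 293, 254 and 264 in Pkd2;Ift88. All mutant kidneys lay below wild type, and the log2 difference of Pkd2 was -1.56, which did not pass (adjusted p = 0.0810, limma). Slc2a2, the basolateral glucose exit carrier, also chosen after its values were seen, stood at 5870, 6837 and 6065 in wild type, at 7337, 7726 and 9355 in Pkd2 and at 8851, 8829 and 8338 in Pkd2;Ift88, again without overlap with wild type (adjusted p = 0.0884 in Pkd2, limma).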
